A study of Mus musculus with 6 samples.

Results

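A set of 10 genes of the striatum and of the dopamine neurons that innervate it was followed in whole brains of mice lacking Mphosph8 in the nervous system. The set was given by name: Drd1, Tac1, Drd2, Penk, Adora2a, Ppp1r1b, Rgs9, Th, Slc6a3 and Nr4a2, which are 10 of 54532 gene identifiers counted and 10 of 16731 genes tested. The choice used no threshold on a measured value, and all 10 genes passed the filter on low counts. Polyadenylated RNA was sequenced from whole brains of C57BL/6J mice at postnatal day 14, with 1 brain per library and 3 libraries per group. Controls were labelled Mphosph8fl/+ with Nestin-Cre+, and mutants Mphosph8fl/fl with Nestin-Cre+. Both groups therefore carried the Cre transgene and at least 1 floxed allele. The control titles carry the tag HET, and Cre can delete their single floxed copy too. The comparison is therefore between loss of both alleles and a heterozygous control, and not a control with an intact gene. Nestin-Cre acts in neuronal progenitors and their descendants, and brain cells of another origin, such as microglia and blood vessels, keep the gene. Mphosph8 encodes MPP8, a histone H3K9me3 reader of the HUSH silencing complex. The comparison addressed which transcripts differ after its loss.

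The striatum is the input station of the basal ganglia and is made up largely of GABAergic spiny projection neurons of 2 kinds. Neurons of the direct pathway carry the dopamine receptor Drd1 and the neuropeptide precursor Tac1, and promote movement. Neurons of the indirect pathway carry Drd2, the adenosine receptor gene Adora2a and the opioid precursor Penk, and restrain it. Dopamine reaches both from midbrain neurons, which make it with tyrosine hydroxylase (Th), take it back with the transporter Slc6a3 and depend on the nuclear receptor Nr4a2.

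The opposing projection pathways are told apart by the peptides they release, so the coding stretches of these peptides are shown from the GENCODE M21 transcripts (GRCm38). Capitals mark the codons of the mature peptide and lower case the 6 bases on either side, which hold the basic residues or the amidation glycine at which the precursor is processed. The first of 6 Met-enkephalin copies in Penk lies at chr4:4134328-4134354 on the minus strand, in exon 2 of 2. The only Leu-enkephalin copy lies in the same exon at chr4:4133935-4133961, minus strand. Substance P of Tac1 lies at chr6:7556726-7556770 on the plus strand, in exon 3 of 7.
Penk, Met-enkephalin: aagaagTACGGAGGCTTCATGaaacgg
Penk, Leu-enkephalin: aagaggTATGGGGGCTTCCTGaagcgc
Tac1, substance P: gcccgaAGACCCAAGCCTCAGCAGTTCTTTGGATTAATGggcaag

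Libraries held between 12956880 and 15223424 counts. Mphosph8 itself was at 55.8, 48.6 and 70.7 CPM (counts per 1000000 counts of a library) in the controls and at 33.1, 27.2 and 26.5 CPM in the mutants, a log2 fold change of -1.02 ± 0.12 (SE, edgeR quasi-likelihood test, adjusted p = 0.000157), so that the targeted gene followed the labels. The noncoding RNA Bc1 took 1.97% to 4.22% of the counts, with the highest shares in mutant 1 (4.22%) and control 1 (3.6%), and results that rest on these libraries are also given without them. Control 3 was the only library with more than 1 count over 4 Y-linked genes (3641 counts). No mutant library matched it, so sex was not balanced between the groups, and the part of sex in the values was not tested. Labelled whole brain was matched by its regional markers: each of 6 cortical, 6 cerebellar, 6 thalamic and midbrain and 6 choroid plexus genes was detected and tested.

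None of the 10 genes passed the test between Mphosph8 mutant and control brains after adjustment over all genes. With edgeR's quasi-likelihood test, 0 of 10 had an adjusted p under 0.05, against 105 of all 16731 genes tested (0.628%; 16 of these, 0.0956%, were lower in the mutants), and DESeq2 and limma-voom also called 0 of 10. With the added demand of a fold change over 2, again 0 of 10 were called, against 0.359% of all genes. The adjusted p of the 10 genes lay between 0.679 and 0.998. Of the log2 fold changes, 6 were positive and 4 negative, with a median of 0.01 beside -0.01 over all genes tested, and their median size was 0.08 beside 0.09.

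The intervals say how large a difference these data leave room for. The 95% intervals of the 10 log2 fold changes ran at the lowest to -0.50 (Drd1, 70.9% of the control level) and at the highest to 0.37 (Th, 129% of control), so that a 2-fold difference in either direction lay outside all 10. At an unadjusted p under 0.05, 1 of 10 was lower (Drd1) by edgeR and by limma-voom, and 0 by DESeq2. Over all genes tested the unadjusted share was 6.51%, made up of 2.41% lower and 4.09% higher in the mutants, so that 1 of 10 is near what the whole table gives.

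**Figure D1:**
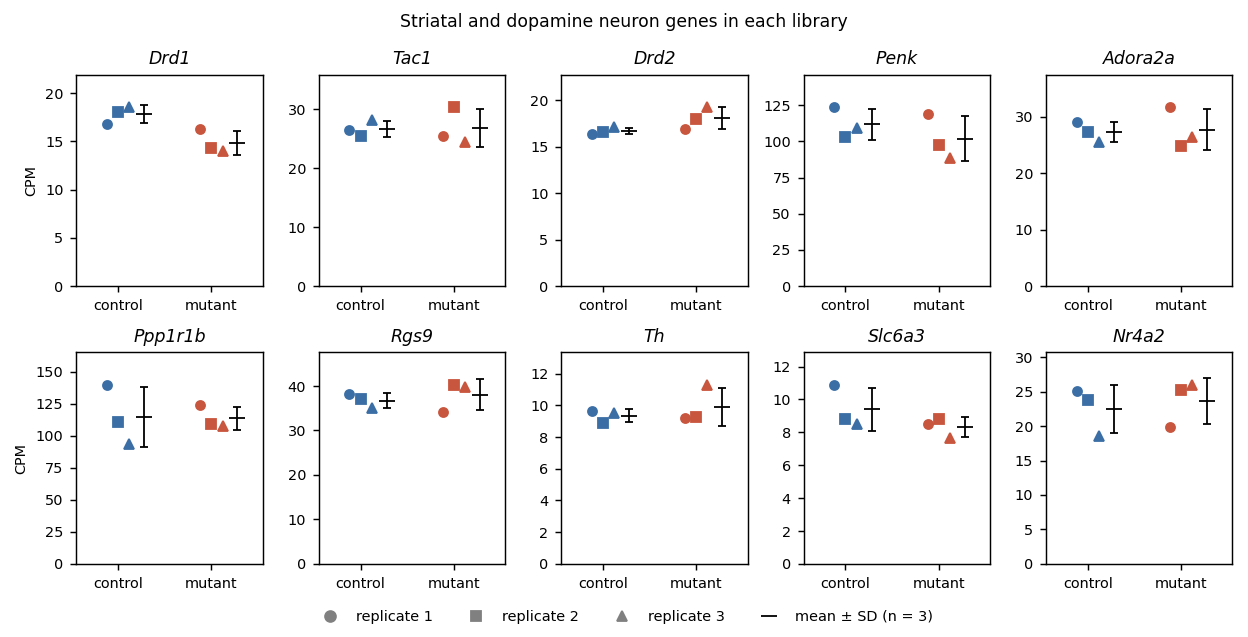
Level in CPM of each of the 10 genes in each library, 1 panel per gene, with points for the 3 control and 3 Mphosph8 mutant brains and a bar at each group mean. Only the Drd1 groups do not overlap, with controls at 16.8 to 18.6 CPM and mutants at 14 to 16.3 CPM.

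Drd1 (ENSMUSG00000021478; chromosome 13, 54051183 to 54055705, minus strand), the Gs-coupled dopamine receptor of the direct pathway, was at 16.8, 18.1 and 18.6 CPM in the controls and at 16.3, 14.3 and 14 CPM in the mutants. All 3 mutant values lay below all 3 control values, a separation that 5.42% of all genes tested also showed in this direction and 6.23% in the other, and mutant 1 came closest to the controls. The log2 fold change was -0.26 ± 0.11 (SE; 95% interval -0.50 to -0.03), or 83.5% of the control level, with an edgeR p of 0.0313 and an adjusted p of 0.679. In whole-brain RNA, fewer cells of a kind and less RNA in each such cell cannot be told apart. The sign was the same in 15 of 15 alternative analyses, which reuse the same libraries. With the groups apart, leaving out libraries could hardly turn it. The log2 fold changes lay between -0.38 and -0.22 and the adjusted p between 0.153 and 1. The unadjusted p was under 0.05 in 10 of the 15. It was 0.0835 without control 2, 0.0914 without control 3, 0.0865 without mutant 2, 0.108 without mutant 3 and 0.0684 with DESeq2.

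Tac1 (ENSMUSG00000061762; chromosome 6, 7554879 to 7565834, plus strand), the precursor of substance P and neurokinin A, is the peptide gene of the same neurons. It was at 26.5, 25.4 and 28.1 CPM in the controls and at 25.4, 30.4 and 24.4 CPM in the mutants. The mutants spanned the whole control range, with mutant 2 above and mutant 3 below it. On the log2 scale the difference was 0.0048 ± 0.10 (SE; 95% interval -0.21 to 0.22; edgeR adjusted p = 0.998), and its sign turned when single libraries were left out.

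Of the indirect-pathway genes, Drd2 (ENSMUSG00000032259; chromosome 9, 49340627 to 49408177, plus strand) encodes the Gi-coupled dopamine receptor, which dopamine neurons also carry as an autoreceptor. It was at 16.4, 16.6 and 17.1 CPM in the controls and at 16.9, 18 and 19.3 CPM in the mutants. Mutants 2 and 3 lay above the highest control and mutant 1 lay inside the control range. For this gene the log2 fold change came to 0.11 ± 0.11 (SE; 95% interval -0.11 to 0.33; edgeR adjusted p = 0.941), and it was positive in 15 of 15 alternatives.

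Penk (ENSMUSG00000045573; chromosome 4, 4133531 to 4138819, minus strand), the source of the enkephalins whose coding stretches are printed above, was at 124, 103 and 109 CPM in the controls and at 119, 97.7 and 88.6 CPM in the mutants. Mutants 2 and 3 were below all controls, and mutant 1 was above all but control 1. As a log2 fold change this was -0.14 ± 0.10 (SE; 95% interval -0.35 to 0.08; edgeR adjusted p = 0.912). Without mutant 1 it was -0.27 with an unadjusted p of 0.00671 and an adjusted p of 0.262, and without control 1 it was -0.06. Over 15 alternatives the value stayed negative, between -0.27 and -0.05.

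Adora2a (ENSMUSG00000020178; chromosome 10, 75316877 to 75334784, plus strand), the Gs-coupled adenosine receptor that opposes Drd2 signalling, was at 29.1, 27.3 and 25.6 CPM in the controls and at 31.8, 24.9 and 26.5 CPM in the mutants. Mutant 1 was the highest and mutant 2 the lowest of the 6 libraries, so the groups overlapped fully. The log2 fold change was 0.02 ± 0.11 (SE; 95% interval -0.21 to 0.24; edgeR adjusted p = 0.995).

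Of the genes used by both kinds of projection neuron, Ppp1r1b (ENSMUSG00000061718; chromosome 11, 98348404 to 98357796, plus strand) encodes DARPP-32, a phosphatase inhibitor switched by dopamine and cAMP. It was at 140, 111 and 93.6 CPM in the controls and at 124, 109 and 108 CPM in the mutants. The control libraries were farther apart than the mutant ones and enclosed them. On the log2 scale the difference was -0.02 ± 0.11 (SE; 95% interval -0.25 to 0.22; edgeR adjusted p = 0.996), but 0.15 without control 1 and -0.14 without control 3.

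Rgs9 (ENSMUSG00000020599; chromosome 11, 109225355 to 109298129, minus strand), which speeds the shut-off of G-protein signalling downstream of dopamine and opioid receptors, was at 38.2, 37 and 35 CPM in the controls and at 34.1, 40.3 and 39.8 CPM in the mutants. Mutants 2 and 3 were above the controls and mutant 1 was below them. For this gene the log2 fold change came to 0.05 ± 0.09 (SE; 95% interval -0.14 to 0.25; edgeR adjusted p = 0.978), and it was positive in 15 of 15 alternatives.

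Of the dopamine neuron genes, Th (ENSMUSG00000000214; chromosome 7, 142892752 to 142931128, minus strand) encodes the rate-limiting enzyme of catecholamine synthesis, which noradrenergic and olfactory bulb neurons share. It was at 9.64, 8.86 and 9.52 CPM in the controls and at 9.2, 9.26 and 11.3 CPM in the mutants. Mutant 3 was the highest library, and the other mutants lay within the control range. As a log2 fold change this was 0.09 ± 0.14 (SE; 95% interval -0.20 to 0.37; edgeR adjusted p = 0.976), and -0.02 without mutant 3.

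Slc6a3 (ENSMUSG00000021609; chromosome 13, 73536747 to 73578672, plus strand), the dopamine transporter, is the most restricted to dopamine neurons of these genes. It was at 10.9, 8.79 and 8.5 CPM in the controls and at 8.48, 8.81 and 7.63 CPM in the mutants. Control 1 stood above the other 5 libraries, and the groups overlapped. The log2 fold change was -0.18 ± 0.15 (SE; 95% interval -0.49 to 0.13; edgeR adjusted p = 0.922), and -0.06 without control 1.

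Nr4a2 (ENSMUSG00000026826; chromosome 2, 57106830 to 57124003, minus strand), the transcription factor Nurr1, is needed for dopamine neuron development and is also made in cortex and hippocampus. It was at 25.1, 23.8 and 18.6 CPM in the controls and at 19.8, 25.2 and 26 CPM in the mutants. Each group held 1 low library, control 3 and mutant 1, and the ranges overlapped. On the log2 scale the difference was 0.08 ± 0.13 (SE; 95% interval -0.19 to 0.34; edgeR adjusted p = 0.978). Without control 1 and mutant 1, the libraries of highest Bc1 share, it was 0.27 with an unadjusted p of 0.0246 and an adjusted p of 0.361, and without control 3 it was -0.04.

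For each of the 10 genes, the highest and the lowest library within each group were noted. The same shares over all genes were not computed, so these counts describe the 10 genes only. Control 1 held the highest control value for 7 of the 10 genes (Penk, Adora2a, Ppp1r1b, Rgs9, Th, Slc6a3 and Nr4a2) and control 3 the lowest for 5. Mutant 1 held the highest mutant value for 4 (Drd1, Penk, Adora2a and Ppp1r1b) and the lowest for 4 others (Drd2, Rgs9, Th and Nr4a2). Mutants 2 and 3 each held the highest mutant value for 3, and mutant 3 the lowest for 5. Control 1 and mutant 1 are also the libraries with the most Bc1, and the part this plays in these values was not tested. Without both of them, 3 of 10 genes had an unadjusted edgeR p under 0.05 (Drd1, Penk and Nr4a2), while 0 of 10 had an adjusted p under 0.05. That fit called more genes in general, with 228 of all genes at an adjusted p under 0.05 beside 105 in the main analysis. The share of all genes under the unadjusted limit in it is not given here, so the 3 are not read as particular to the set.

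**Figure D2:**
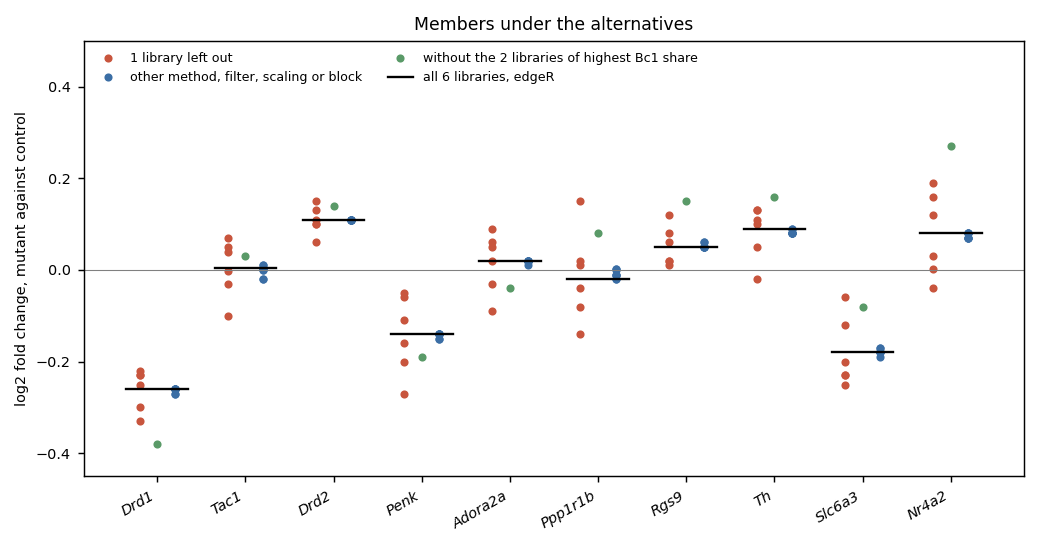
Log2 fold change (mutant against control) of each of the 10 genes in the main analysis and in 15 alternatives. Drd1, Penk and Slc6a3 stayed below 0 and Drd2 and Rgs9 above 0 in every alternative run, and the values of Tac1, Adora2a, Ppp1r1b, Th and Nr4a2 lay on both sides of 0.

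Expressed per kilobase of exon, so that genes of different length can be compared, the levels spanned a ratio of 25.2 between the highest and lowest gene in the controls. The peptide precursor Penk was the highest at 68.5 ± 6.72 CPM per kb (SD, n = 3), followed by Ppp1r1b at 39.2 ± 7.99. Next came Adora2a at 8.94 ± 0.568, Tac1 at 7.84 ± 0.395 and Drd2 at 6.57 ± 0.146 CPM per kb. Rgs9 (5.74 ± 0.254), Nr4a2 (5.55 ± 0.847) and Drd1 (4.91 ± 0.258) followed, and the control ranges of the neighbours Rgs9 and Nr4a2, and of Nr4a2 and Drd1, overlapped. Th at 3.95 ± 0.177 and Slc6a3 at 2.72 ± 0.379 CPM per kb were the lowest.

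**Figure D3:**
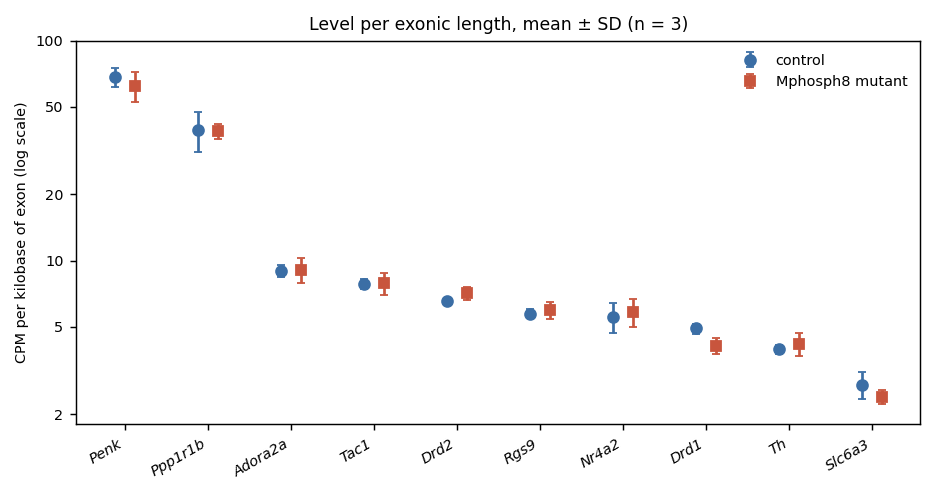
Level per kilobase of exon (CPM per kb, log axis) of the 10 genes in order of their control mean, with points at the group mean and error bars of 1 SD over 3 libraries. Penk and Ppp1r1b lie well above the rest, and Drd1 is eighth in the controls at 4.91 and ninth in the mutants at 4.1 CPM per kb.

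The order in the mutants differed at a single place. Drd1, at 4.1 ± 0.346 CPM per kb (SD, n = 3), came just below Th, at 4.19 ± 0.499, and the ranges of these neighbours overlapped. The order of the other 8 genes was that of the controls, with Penk at 62.3 ± 9.58 and Slc6a3 at 2.4 ± 0.175 CPM per kb at its ends. Mutant ranges overlapped between Adora2a and Tac1, between Tac1 and Drd2, and between Rgs9 and Nr4a2.

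Ratios of 2 genes within a library do not depend on its depth, and 4 were formed after the values had been seen, so that they are given without a test. The ratio of Drd1 to Drd2, the receptors of the opposing pathways, was 1.02, 1.09 and 1.08 in the controls and 0.967, 0.793 and 0.728 in the mutants, and the groups did not overlap. The ratio of Tac1 to Penk, the peptides of the same pathways, was 0.213, 0.247 and 0.257 in the controls and 0.214, 0.311 and 0.276 in the mutants, and the groups overlapped. The ratio of Th to Slc6a3 also overlapped, at 0.884, 1.01 and 1.12 in the controls and 1.08, 1.05 and 1.48 in the mutants. The groups were thus apart for the receptors and not for the peptides, and the difference between these ratios was not tested. Drd1 alone was already apart between the groups. The share of all gene pairs whose ratios are apart was not computed. Whole-brain RNA does not show which cells each transcript came from, so the ratios compare genes and not pathways.

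**Figure D4:**
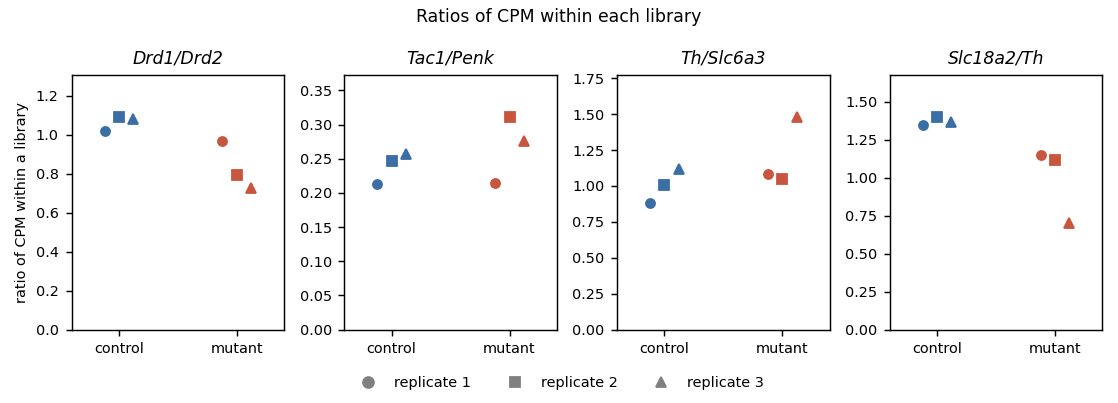
Ratio of CPM within each library for Drd1 to Drd2, Tac1 to Penk, Th to Slc6a3 and Slc18a2 to Th, with points for the 3 control and 3 mutant brains. The groups are apart for Drd1 to Drd2 and for Slc18a2 to Th, and overlap for the other ratios.

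The other genes of the striatal projection neurons gave the same count as the 7 striatal genes of the set. Of 28 such genes tested in 3 lists (1 listed gene was not analysed here), 0 had an adjusted p under 0.05 by edgeR, DESeq2 or limma-voom. At an unadjusted p under 0.05, edgeR had 3 higher and 1 lower, limma-voom 3 and 1, and DESeq2 2 and 1. Over all genes tested, edgeR had 4.09% higher and 2.41% lower at this limit. The median log2 fold change of the 28 genes was 0.04, with 18 positive and 10 negative values.

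Among 7 further direct-pathway genes the log2 fold changes ran from -0.10 ± 0.11 (SE) for Pdyn, the dynorphin precursor, to 0.19 ± 0.08 for Sfxn1, a mitochondrial serine transporter (edgeR adjusted p of 0.95 and 0.689). The value of Drd1, -0.26, lay below those of all 7, a difference between genes that was not tested. Pdyn, a peptide gene of the same neurons, was at 22.3, 21.1 and 20.2 CPM in the controls and 22.4, 20.1 and 16.8 CPM in the mutants, with overlap. Among 5 indirect-pathway genes they ran from -0.19 ± 0.16 for the orphan receptor Gpr6 to 0.23 ± 0.16 for the transcription factor Sp9 (edgeR adjusted p of 0.931 and 0.906). Among 16 genes of both kinds of neuron, 13 values were positive and 3 negative. They ran from -0.21 ± 0.08 for Scn4b, a sodium channel subunit (adjusted p = 0.542), to 0.27 ± 0.09 for Gng7, the G-protein gamma subunit of striatal receptors (adjusted p = 0.39), both by edgeR.

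Other genes that serve dopamine neurons were listed apart from Th, Slc6a3 and Nr4a2, of which 2 had positive values and 1 a negative one. Over 2 lists, on synthesis and storage and on transcription factors and markers, 19 of 22 genes were tested, 5 log2 fold changes were positive and 14 negative, and the median was -0.11. Over all genes tested, 7967 values were positive and 8764 negative. The control means of the 19 ran from 1.47 CPM for Lmx1a to 132 CPM for Aldh1a1, beside 9.34 for Th and 9.4 for Slc6a3. How much of each value came from dopamine neurons was not tested, so the signs are not a measure of these neurons. Of the 19, 1 was called, Dlk1, and it was lower in the mutants. Over all genes tested, edgeR called 0.628%, with 0.0956% lower in the mutants. Pitx3, Foxa1 and Foxa2, transcription factors of these neurons, held 5, 28 and 13 counts over all 6 libraries and were not tested.

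Dlk1, a Notch-related membrane protein of midbrain dopamine neurons that other cells of the young brain also make, was at 20.5, 20.3 and 18.3 CPM in the controls and at 13.4, 13.7 and 13.3 CPM in the mutants. Every mutant lay well below every control. Its log2 fold change was -0.55 ± 0.11 (SE; 95% interval -0.77 to -0.32), with an edgeR adjusted p of 0.0184. The value stayed between -0.60 and -0.52 over 15 alternatives, but the adjusted p, between 0.00319 and 0.129, passed above 0.05 without control 1 (0.0948), control 2 (0.129), mutant 2 (0.075) or mutant 3 (0.0973).

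Of 6 genes of dopamine synthesis and storage, 0 had an adjusted p under 0.05 by edgeR, DESeq2 or limma-voom, and 2, 1 and 2 were lower at an unadjusted p under 0.05. Over all genes tested, 2.41% were lower at this limit by edgeR. Slc18a2, the vesicular monoamine transporter that loads dopamine into vesicles, was at 13, 12.4 and 13 CPM in the controls and at 10.6, 10.4 and 7.92 CPM in the mutants. All mutants were below all controls, as for 5.42% of all genes tested. The log2 fold change of -0.42 ± 0.13 (SE) had an adjusted p of 0.34 by edgeR. Without mutant 3 it was -0.29 with an unadjusted p of 0.0538. At the other end of the list stood Pts, an enzyme of cofactor synthesis, at 0.05 ± 0.10.

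Slc18a2 and Ddc, an enzyme of monoamine synthesis, also serve serotonergic and noradrenergic neurons. The tested markers of those neurons had negative log2 fold changes too. Ddc, named after its values were seen, had a log2 fold change of -0.26 ± 0.12 (SE, edgeR adjusted p = 0.711). The serotonergic genes Slc6a4, the serotonin transporter, and Tph2, its synthetic enzyme, had log2 fold changes of -1.12 ± 0.26 and -0.95 ± 0.22 with edgeR adjusted p of 0.0685 and 0.0702. With the third gene of that list, Fev (23 counts, not tested), their summed level was 11.1 to 18.4 CPM in the controls and 4.73 to 10.2 CPM in the mutants. These calls turned on single libraries. For Slc6a4 the adjusted p was 0.00364 without mutant 1, 0.0475 without control 3, 0.00396 without control 1 and mutant 1 together, and 0.036 with DESeq2, but 0.337 without control 1 alone. For Tph2 it was 0.00793 without mutant 1, 0.0372 without control 3 and 0.0157 without control 1 and mutant 1 together, but 0.39 without control 1 alone. Over all 15 alternatives it ran from 1.19e-06 to 0.337 for Slc6a4 and from 9.58e-05 to 0.39 for Tph2, with both lowest values when no filter was applied.

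The noradrenaline transporter Slc6a2 lay on the same side. It was at 3.59, 3.44 and 3.24 CPM in the controls and at 1.84, 2.31 and 1.6 CPM in the mutants, without overlap. Such a separation in this direction was seen in 5.42% of all genes tested. Its log2 fold change was -0.83 ± 0.23 (SE), with an adjusted p of 0.169 by edgeR. The part serotonergic and noradrenergic neurons play in the values of Slc18a2, Ddc and Th was not tested. The dopamine transporter Slc6a3, which the other monoamine neurons lack, was at 8.5 to 10.9 CPM in the controls and 7.63 to 8.81 CPM in the mutants, with overlap. In the same libraries the ratio of Slc18a2 to Th was 1.35, 1.4 and 1.37 in the controls and 1.15, 1.12 and 0.703 in the mutants, without overlap. Slc18a2 alone was already apart, and the share of all such ratios that are apart was not computed.

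Of the remaining dopamine receptors, Drd3 and Drd4 held 28 and 29 counts over all libraries and were not tested. Among the 4 genes of receptors and breakdown that were tested, 0 had an adjusted p under 0.05 by edgeR, DESeq2 or limma-voom, and each tool had 1 higher at an unadjusted p under 0.05. This was Drd5, the other Gs-coupled dopamine receptor, found mainly outside the striatal projection neurons. It was at 4.39, 3.22 and 3.31 CPM in the controls and at 6.4, 4.63 and 5.89 CPM in the mutants. All mutants were above all controls, as for 6.23% of all genes tested. By edgeR 4.09% of all genes were higher at an unadjusted p under 0.05. The log2 fold change of Drd5 was 0.63 ± 0.20 (SE, edgeR adjusted p = 0.312). Of its 3152 exonic bases, 1531 lie opposite Gm26560, which held 15 counts over all libraries, and whether the counting used strand is not stated in the methods read here. The lowest value of the list was that of Maoa, which breaks dopamine down, at -0.05 ± 0.08.

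**Figure D5:**
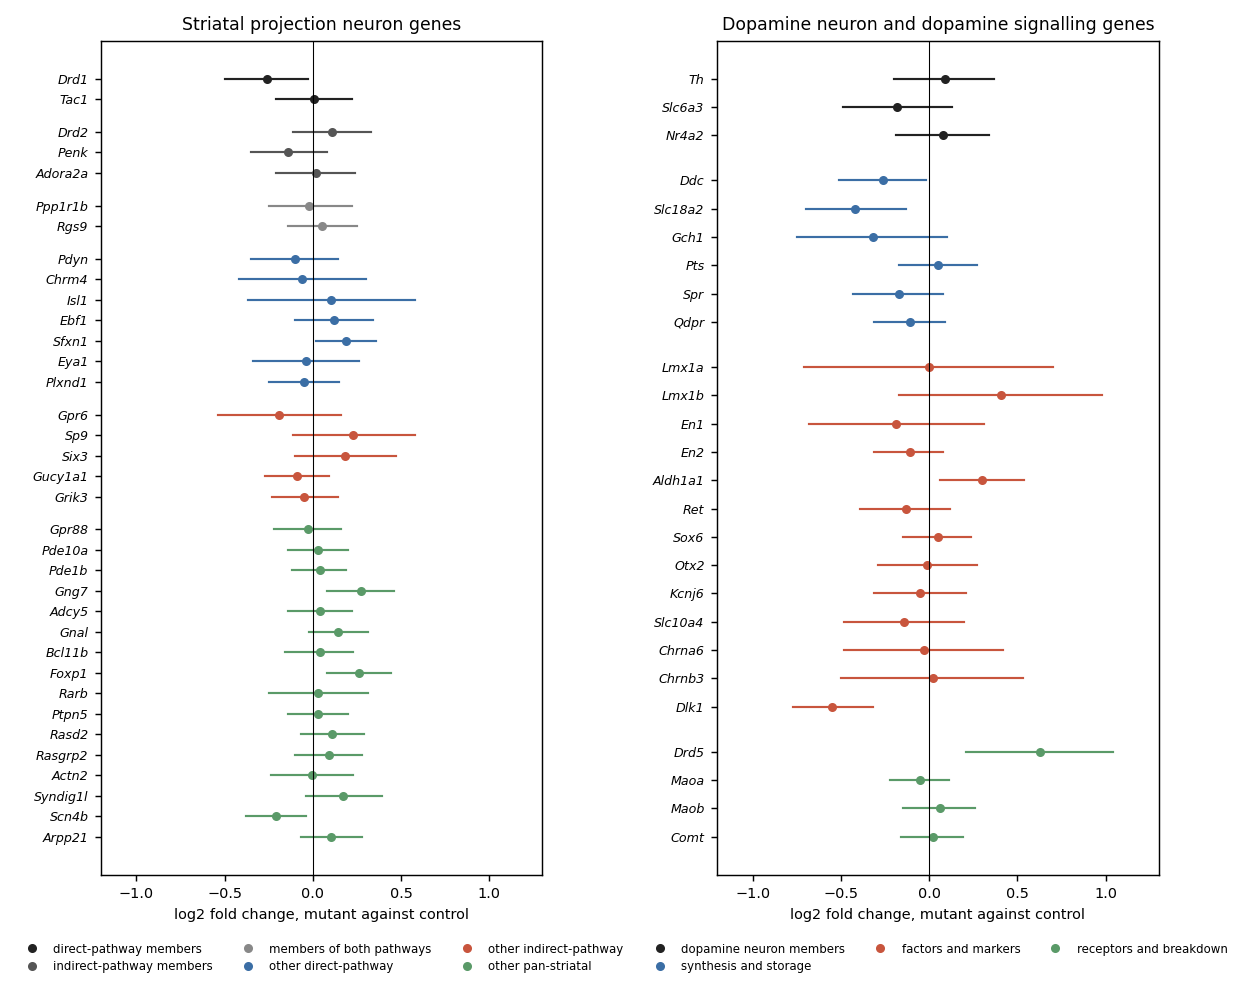
Log2 fold change (mutant against control) with its 95% interval for the 10 genes and the other listed genes tested, striatal on the left and dopamine-related on the right, coloured by list. The intervals of 9 of the 10 genes include 0, the exception being Drd1, and Dlk1 at -0.55 is the one gene drawn here with an adjusted p under 0.05.

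The reads of the 10 genes were nearly free of ambiguity. No 50-base word of 9 genes occurs in the exons of another gene, and for Rgs9 the share was 1.2%. Penk shares 233 exonic bases with the opposite-strand gene A830012C17Rik (8 counts over all libraries) and Ppp1r1b 460 with 1700003D09Rik (177 counts over all libraries).

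Levels of other cell types were set beside the 10 genes, since whole-brain values depend on tissue makeup. Among 8 oligodendrocyte markers, 3 were lower at an adjusted p under 0.05 by edgeR and 6 by DESeq2. Over all genes tested, edgeR called 0.0956% lower. The oligodendrocyte markers summed to 21889 to 26217 CPM in the controls and 17339 to 20113 CPM in the mutants. Among 8 general neuronal markers 0 were called by edgeR, DESeq2 or limma-voom. By edgeR 1 of these was lower at an unadjusted p under 0.05, beside 2.41% of all genes tested. The summed level of the 8, 4898 to 5267 CPM in the controls, overlapped that of the mutants, 4630 to 5153 CPM. The summed level of the 7 striatal genes overlapped as well, at 327 to 391 CPM and 320 to 367 CPM. Most of this sum was Penk and Ppp1r1b, with control means of 112 and 115 CPM beside 17.8 CPM for Drd1. The sum therefore says little of Drd1. The summed level of the 3 dopamine neuron genes, Th, Slc6a3 and Nr4a2, also overlapped, at 36.6 to 45.7 CPM and 37.5 to 44.9 CPM. The part of tissue makeup in the values of single genes was not tested.

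The genes whose levels followed those of the set most closely were found by the root mean square distance between centred log2 CPM over the 6 libraries, among 12404 genes with a mean of at least 5 CPM. For the mean of the 7 striatal genes these were Tssc4 (0.00968), Smim7 (0.0107) and Smpd2 (0.0139). For the mean of the 3 dopamine neuron genes they were Trpt1 (0.0169), Rnf166 (0.0198) and Ppp5c (0.0215). None of them is on the striatal or dopamine lists, and with 6 libraries and small differences between them the likeness is a description only.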

How the data were processed

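RNA-seq was performed on 6 whole brains at postnatal day 14, 3 control and 3 Mphosph8 mutant, grouped by the titles of the samples. The deposited values were raw read counts per gene, 1 table per library. Per the labels and the study's methods, the authors enriched polyadenylated RNA, sequenced single 50-base reads, trimmed them with Trim Galore 0.5.0, removed ribosomal and other unwanted reads with Bowtie2 2.3.4.1, aligned to GRCm38 and counted with featureCounts (Subread 1.6.2). The sources used here do not give the strand or multi-mapping settings.

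Counts were tested as deposited with edgeR 4.0.16 (R 4.3.3; filterByExpr, TMM, quasi-likelihood F test, genotype as the only term), with Benjamini-Hochberg adjustment over 16731 genes and a threshold of 0.05. CPM uses TMM-scaled library sizes. The fit was repeated with DESeq2 1.42.0, with limma-voom (limma 3.58.1), with RLE size factors, without a filter, with at least 1 CPM in 3 libraries, with a replicate block, a GC correction or both, and with each library left out. An analysis without the 2 libraries of highest Bc1 share was chosen after seeing the data. Scripts were tested on simulated counts. Annotation was GENCODE M21, which matched 54409 of 54532 identifiers. Coordinates are GRCm38.

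The members and lists were chosen with earlier results of these data known. The 10 genes and Mphosph8 were named, and from each pathway list every gene with an adjusted p under 0.05 or else the tested genes with the largest and smallest log2 fold change. Drd3, Drd4, Ddc, Fev, Pitx3, Foxa1, Foxa2 and the Pdyn comparison with Drd1 are given beyond that rule, as is the range of each marker list, and 1 gene that the rule names is not reported here. Replicate numbers are not stated to mark a shared litter, and deviations of same-numbered libraries correlated at 0.104, -0.0467 and 0.0804, so they were not treated as pairs. Each library is a separate brain. Squared differences between replicates of a group were 3.42 to 12.3 times those of sampling noise alone (chi-square per degree of freedom, a ratio of variances).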

Additional observations from a re-analysis of the deposited data

How the results depend on the processing

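In each of the 15 alternatives, 0 of the 10 genes had an adjusted p under 0.05 and 0 passed the 2-fold limit. The number with an unadjusted p under 0.05 was 1 in the main analysis, 0 with DESeq2, 0 to 2 when a library was left out (2, Drd1 and Penk, without mutant 1) and 3 without the 2 libraries of highest Bc1 share. Over all genes, 105 had an adjusted p under 0.05, with 242 when no filter was applied, 66 to 162 when a library was left out, 228 without the 2 libraries of highest Bc1 share and 60 with the 2-fold limit. Replicate numbers gave no pairing. With the replicate block, Drd1 was at -0.26 with an edgeR p of 0.0393 and an adjusted p of 0.69. Under it 0 of the 10 genes had an adjusted p under 0.05 and 1 an unadjusted p under 0.05, and no call on the 10 genes changed. The block did change 2 serotonergic genes, with adjusted p of 0.00322 for Slc6a4 and 0.0084 for Tph2.

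Small log2 fold changes turned sign. Tac1 was at -0.00085 with limma-voom, -0.02 with the GC correction and with block and GC correction, and -0.10 to 0.07 when a library was left out. Ppp1r1b was at 0.00093 with limma-voom, 0.0011 with block and GC correction, 0.08 without the 2 Bc1-rich libraries and -0.14 to 0.15 when a library was left out. Adora2a was at -0.04 without the 2 Bc1-rich libraries and -0.09 to 0.09 when a library was left out. Leaving out a library gave -0.02 to 0.13 for Th and -0.04 to 0.19 for Nr4a2. The cause was not tested. With 3 brains a group, standard errors of 0.09 to 0.15 (log2) leave differences within the printed intervals undetected.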

Other observations

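Beside the 10 genes, markers of other brain cells were read by their summed level. Over all genes tested, 2.41% were lower and 4.09% higher at an unadjusted p under 0.05 by edgeR. Among 6 choroid plexus markers, 0 had an adjusted p under 0.05 by edgeR and 1 each by DESeq2 and limma-voom, with 1 lower at an unadjusted p under 0.05 by each. Their summed level was 1448 to 1741 CPM in the controls and 1071 to 1281 CPM in the mutants, without overlap. Nearly all of this sum was Ttr, named after its values were seen, at 1381 to 1671 CPM in the controls and 1018 to 1214 CPM in the mutants (log2 fold change -0.45 ± 0.11 SE, edgeR adjusted p = 0.0764), and each of the other 5 markers overlapped between the groups. Among 8 astrocyte markers 0 were called by edgeR, DESeq2 or limma-voom, with 1 higher at an unadjusted p under 0.05 by edgeR, and they summed to 9185 to 10441 CPM in the controls and 10066 to 10795 CPM in the mutants. The summed levels of microglial markers, at 646 to 716 and 667 to 769 CPM, and of blood markers, at 333 to 406 and 326 to 412 CPM, overlapped between the groups. In both lists 0 were called by any of the 3 tools and 0 had an unadjusted p under 0.05. The single microglial gene P2ry12 was higher in all mutants than in all controls, as for 6.23% of all genes tested.

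The summed levels of regional neuron markers overlapped between the groups in each list. Cortical excitatory markers summed to 871 to 932 CPM in the controls and 815 to 953 CPM in the mutants. Most of this sum was Slc17a7, with a control mean of 806 CPM. Cerebellar markers summed to 899 to 1091 and 937 to 1010 CPM, and thalamic and midbrain markers to 252 to 283 and 248 to 267 CPM. In these 3 lists, 0 of 18 genes were called by edgeR, DESeq2 or limma-voom, and 0 had an unadjusted p under 0.05. Of the single genes, Prkcd of the thalamic and midbrain list was lower in all mutants (45.9 to 47.5 CPM) than in all controls (47.7 to 53.3 CPM). Such a separation in this direction was seen in 5.42% of all genes tested.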
